A study of Gallus gallus with 13 samples.

Results

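Chromosome 14 of wild-type (Wt) DT40 cells was described here in 20 kb windows, each holding the signal of nascent DNA in 4 successive fractions of S phase. The windows were tiled from position 1 of the chromosome (galGal5 build). Those with at least 10 values at positions up to 15024001 were taken, 750 in all. Together with the windows of the whole of chromosome 1, they make 10558 windows with Wt fraction profiles. The end of chromosome 14 beyond 15024001 is not counted in this number. The 750 windows run without a gap from 20001 to 15020000, on a chromosome of 15595052 bases. DT40 is a chicken B cell line derived from a bursal lymphoma, and the Wt genotype carries none of the insertions that the series studies on chromosome 1. Growing cells were pulsed for 1 h with BrdU, a thymidine analog that marks newly made DNA, and sorted by flow cytometry into the fractions S1, the earliest, to S4, the latest. Nascent strands pulled down with an antibody against BrdU were then amplified and sequenced (Repli-seq). With 1 library for each fraction, the spread between replicates could not be measured and nothing was tested. The profiles carry scores and no counts, so the sequencing depth behind them is unknown. Of the 13 samples of the series, the other 9 were not analysed here.

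Vertebrate chromosomes replicate in domains. Early domains are as a rule rich in active genes and open chromatin, late ones poor in genes and compact, and the stretches between them are copied in mid S phase by forks that move out of the early domains. Chicken chromosome 14 is one of the microchromosomes, the small chromosomes of birds, which are known for a high gene density, a high GC content and early replication. Genes and sequences of the windows were not placed here, since the gene table at hand belongs to another build.

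For each fraction the deposited scores were shifted so that their 1st percentile became 0, lower values were set to 0, and all 4 fractions were scaled to the same mean over the chromosome. The fraction with the highest scaled signal in a window is said to lead it. The timing index of a window weights the shares of S1 to S4 by 4, 3, 2 and 1. It runs from 1, with all signal in S4, to 4, with all signal in S1. Scores named in SD units are the deposited scores of a fraction set to mean 0 and SD 1 over the kept positions.

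S1 led more of chromosome 14 than any other fraction. It led 366 of the 750 windows (48.8%), or 7320 kb. S2 led 173 windows (23.1%), S3 led 116 (15.5%) and S4 led 95 (12.7%, 1900 kb). Over the whole chromosome the order of the shares thus followed the order of S phase. It did not hold throughout: from 10040001 to 15020000, S4 led 26.9% of windows, more than S2 (21.7%) or S3 (18.1%). The median index was 2.89, with quartiles of 2.25 and 3.26, and the windows ranged from 1.15 to 3.79. The highest index lay at 13120001 to 13140000, where S1 held 80.9% of the summed signal, S2 17.3%, S3 1.57% and S4 0.246%. The lowest lay at 11500001 to 11520000, where S4 held 85.0%, S3 14.6%, S2 0.434% and S1 0%. The windows at both ends of the range thus held nearly all of their signal in 1 fraction and its neighbour in S phase. The index is built from these shares, so this follows from the choice of windows and is no separate finding.

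**Figure D1:**
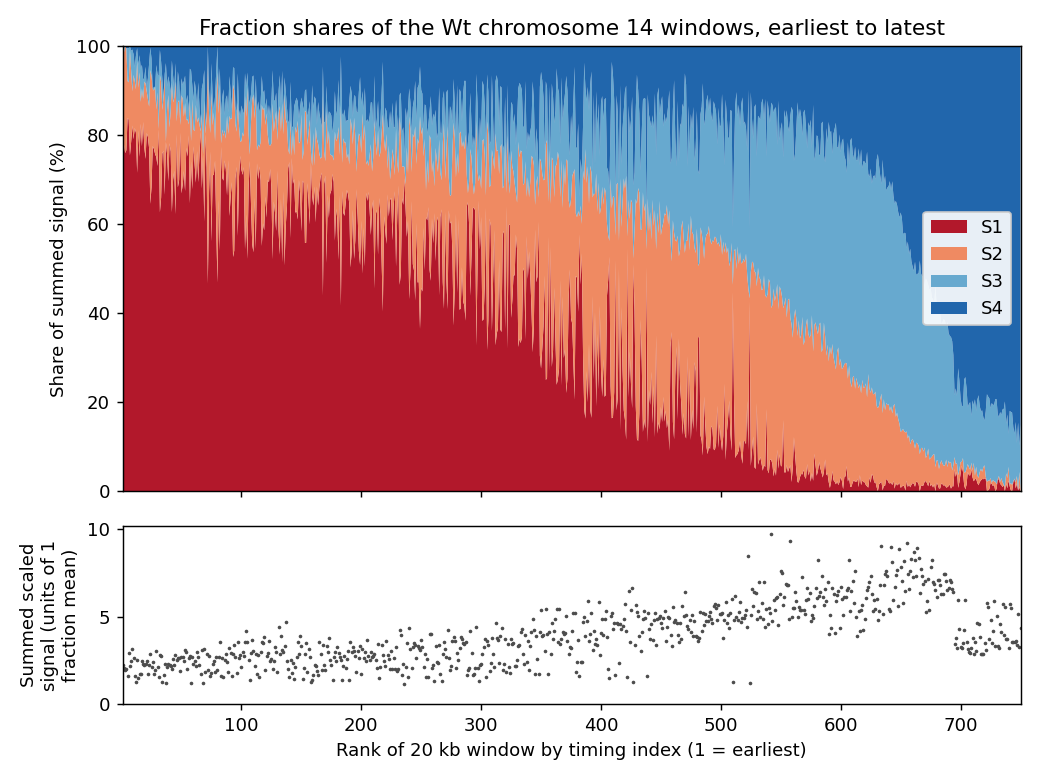
Upper panel, stacked shares (%) of S1 to S4 in the summed scaled signal of each of the 750 windows of 20 kb, ordered from the highest to the lowest timing index; lower panel, the summed scaled signal of the same windows, in units of the mean of 1 fraction. S1 gives way to S2, then S3, then S4 from left to right, and the summed signal is low on the left, where the S1-led windows have a median of 2.62.

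Windows led by an end of S phase were more strongly dominated by 1 fraction than windows led by S2 or S3. The median share of the leading fraction was 78.4% in S4-led windows (45.4% to 89.7%) and 62.3% in S1-led windows (27.0% to 83.8%). It was 47.5% in S3-led windows (29.1% to 57.0%) and 44.1% in S2-led windows (28.3% to 60.6%). The leading fraction held at least 50% of the signal in 88 of 95 S4-led and 290 of 366 S1-led windows, but in 37 of 116 S3-led and 30 of 173 S2-led windows. The signal of windows led by S2 or S3 was therefore spread over more fractions in these libraries. For S4 the high share came mostly from 1 interval. Of the 95 S4-led windows, 67 lay at 10420001 to 11760000, with a mean S4 share of 77.3%. The mean S4 share was 55.9% in those at 1500001 to 1880000 and 52.8% in those at 9500001 to 9680000. S2 and S3 have a neighbouring fraction on both sides, and S1 and S4 on 1 side only. A lower share can follow from this order alone, which was not tested. On chromosome 1, scaled alone, the median shares were 57.2%, 43.2%, 42.3% and 57.9% for windows led by S1 to S4. In S2-led windows the medians of the other fractions were 18.2% for S1, 22.7% for S3 and 12.3% for S4. In S3-led windows they were 26.2% for S2, 23.9% for S4 and 2.53% for S1. S4-led windows held medians of 18.5% in S3, 2.89% in S2 and 1.53% in S1.

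The shape of the signal differed between the fractions. S1 scores were spread almost evenly about their mean, with a skewness of 0.0408 over positions, and 10 windows lay above 2 SD units. Skewness was 0.649 in S2, 1.18 in S3 and 1.82 in S4, and 27, 40 and 56 windows lay above 2 SD units. The later the fraction, the fewer windows held 50% of its scaled signal. They numbered 207 for S1 (27.6%), 163 for S2, 125 for S3 and 110 for S4 (14.7%). Windows with less than 0.2 of the mean signal of a fraction did not follow this order. There were 161 for S1, 162 for S2, 201 for S3 and 72 for S4. S4 reached its maximum of 3.37 SD units at 11560001 to 11580000, and S1 its maximum of 2.67 at 7080001 to 7100000. The maxima of S2, 2.74, and S3, 3.26, fell in the same window, at 14080001 to 14100000, which S3 led.

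Consecutive windows with the same leading fraction formed 43 runs, of which 1 was a single window. S1 led 11 runs with a median length of 520 kb (140 to 1380 kb), and S4 led 3, of 180, 380 and 1340 kb. S2 led 18 runs with a median of 120 kb (20 to 640 kb), and S3 led 11 with a median of 140 kb (40 to 660 kb). Runs of 500 kb or longer numbered 10 and covered 62.0% of the windows. They held 83.9% of the S1-led and 70.5% of the S4-led length, against 33.5% of the S2-led and 28.4% of the S3-led length. On this chromosome S1-led DNA thus lay mostly in long runs, and S2-led and S3-led DNA mostly in short ones. For S4 the 70.5% came from the 1 run of 1340 kb, so no general layout of late replication is shown. On chromosome 1, scaled alone, such long runs held 31.3%, 9.39%, 12.1% and 78.9% of the length led by S1 to S4. There S1 led 22.3% and S4 42.1% of windows, against 48.8% and 12.7% here. Whether the run lengths follow from these percentages was not tested.

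**Figure D2:**
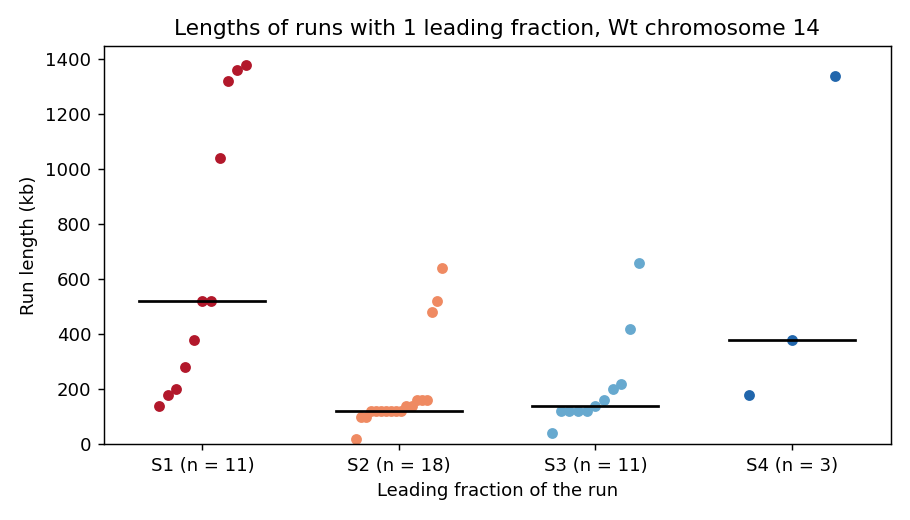
Length (kb) of each run of windows with the same leading fraction on Wt chromosome 14; each point is a run and each bar the median of its fraction. Most S2-led and S3-led runs sit below 200 kb, and 6 S1-led runs and 1 S4-led run reach 500 kb.

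The early part of the chromosome consisted mainly of 4 S1-led runs longer than 1000 kb. The longest, from 12040001 to 13420000 (1380 kb), had a mean index of 3.45 and a mean S1 score of 0.972 SD units, with S2 at -0.365, S3 at -0.792 and S4 at -0.745. The next ran from 6400001 to 7760000 (1360 kb) with a mean index of 3.29 and S1 at 0.986 SD units. A single S2-led window, at 6380001 to 6400000, parted it from the S1-led run of 380 kb before it. In that window S2 held 41.1% and S1 40.9% of the signal, so the lead there turned on a small difference, and with z-scores or a zero at the 5th percentile the runs joined into 1 of 1760 kb. The run from 4000001 to 5320000 (1320 kb) had a mean index of 3.27 and a lower mean S1 score, 0.576 SD units. That from 8240001 to 9280000 (1040 kb) had 3.26 and 0.871 SD units. These 4 runs were alike in index, and the S1 score differed more among them than the index did.

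The 7 shorter S1-led runs varied more in index, from 2.60 to 3.24. Of these, 6000001 to 6380000 (3.24), 9900001 to 10180000 (3.22) and 14880001 to 15020000 (3.19) came close to the long runs. The run at 2140001 to 2320000 had 2.77. The run from 700001 to 1220000 (520 kb) had a mean index of 2.97, with S1 holding 49.4% and S4 19.8% of the signal. That from 3000001 to 3520000, of the same length, had a mean index of 3.06. At the start of the chromosome, from 20001 to 220000, S1 led with 32.1%, but S4 held 25.8%, S2 21.4% and S3 20.7%. No fraction stood out in these first 200 kb, and their mean index was 2.60.

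S4 led in 3 intervals of the 750 windows, and in all 3 the S1 and S2 scores were below their means. The longest S4-led run lay at 10420001 to 11760000 (1340 kb). Its mean scores were 2.14 SD units in S4, -0.0493 in S3, -1.02 in S2 and -1.37 in S1, and its mean index was 1.29. The run at 1500001 to 1880000 (380 kb) had mean scores of 2.68 in S4, 1.44 in S3, -0.534 in S2 and -1.33 in S1, and that at 9500001 to 9680000 (180 kb) had 2.27, 1.52, -0.648 and -1.33. S3 by contrast was high in the shorter 2 and close to its mean in the longest. The mean index of the shorter runs was 1.54 and 1.57. The number of S4-led runs was 4 with windows of 10 kb and 4 with leads taken from z-scores. With z-scores S4 also led at 3180001 to 3220000, inside the S1-led run at 3000001 to 3520000. The S4 scores of its windows were -0.455 and -0.422 SD units there, and the S1 scores -0.724 and -0.622.

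Within the longest S4-led run the signal changed from its edges to its middle. In the first 100 kb S4 was at 2.69 SD units and S3 at 1.39, and in the last 100 kb at 3.12 and 1.78. In the middle 100 kb, from 11020001 to 11120000, S4 was at 1.38 and S3 at -0.535. Both fractions were therefore higher at the edges. As a share of the summed signal, S4 held 57.5% and 56.1% at the edges and 82.4% in the middle. The summed signal was 6.92 and 8.11 at the edges and 3.08 in the middle, in units of the mean of 1 fraction, so the score and the share of S4 ran in opposite directions.

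**Figure D3:**
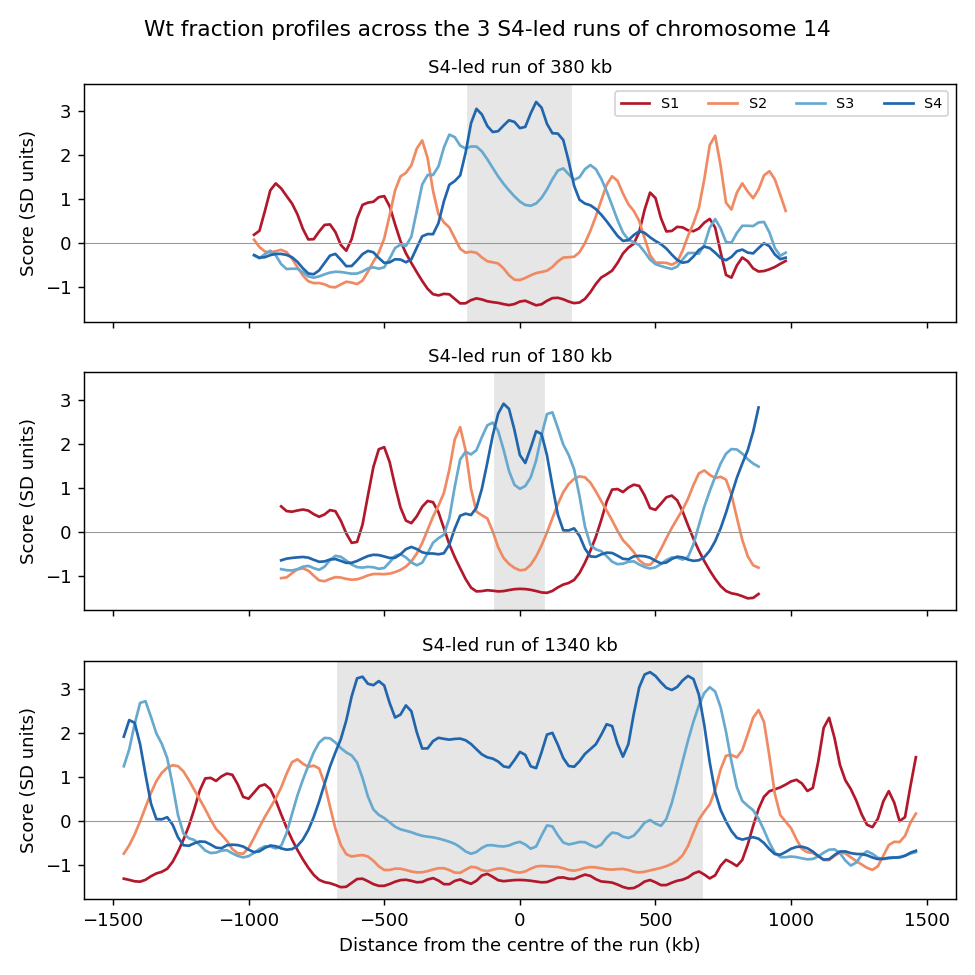
Scores of S1 to S4 (SD units) across the 3 S4-led runs of Wt chromosome 14, plotted by distance (kb) from the centre of each run, with 800 kb on either side; grey marks the run. In each panel the S2 peaks lie farther from the centre than the S3 peaks on both flanks, S4 is already above 0 where S3 peaks, and in the run of 1340 kb S4 is higher near both edges than in the middle.

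Fractions followed each other along the chromosome in the order of S phase. All 42 joins between neighbouring runs linked fractions next to each other in time: 20 linked S1 and S2, 16 linked S2 and S3, and 6 linked S3 and S4. The count of joins that skipped a fraction, 0 here, was 2 with windows of 10 kb and 2 with leads taken from z-scores. From the 42 joins it follows that all 9 S1-led runs away from the ends lay between S2-led runs, and all 3 S4-led runs between S3-led runs. Of the 18 S2-led runs, 16 lay between an earlier and a later run. The other 2 were turning points between S1-led runs, the longer of them the run of 480 kb at 7760001 to 8240000. Of the 11 S3-led runs, 6 flanked an S4-led run and 5 were turning points between S2-led runs.

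The passage from S1-led to S4-led DNA took a similar distance each time. The 6 crossings, 1 on either side of each S4-led run, measured 220, 220, 240, 260, 280 and 280 kb from the end of the S1-led run to the start of the S4-led run (median 250 kb). Within them S2 led over 100 to 160 kb and S3 over 120 to 160 kb. The shortest lay on both sides of the S4-led run at 9500001, and the longest were 1220001 to 1500000 and 11760001 to 12040000. With windows of 20 kb these lengths are known to the nearest window only. The profiles are also smooth, as the correlation between steps of 1 kb fell below 0.5 only 26 to 31 kb apart.

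Averaged over the 6 crossings, the shares rose and fell in turn. With distances counted negative on the early side of the border of the S4-led run, S1 held 60.1% on average at -410 kb (38.9% to 77.1% among the crossings). S2 was highest at -170 kb, with 46.4% (39.0% to 52.3%), where S1 was at 13.7%. S3 was highest at -50 kb, with 49.4% (44.9% to 54.4%), with S4 at 28.7% and S1 at 1.80%. At 90 kb inside the run, S4 held 58.5% (51.8% to 66.3%) and S3 still 34.3%. At the border itself the alignment sets S4 just below S3 outside and just above it inside, so the narrow ranges there are no finding.

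**Figure D4:**
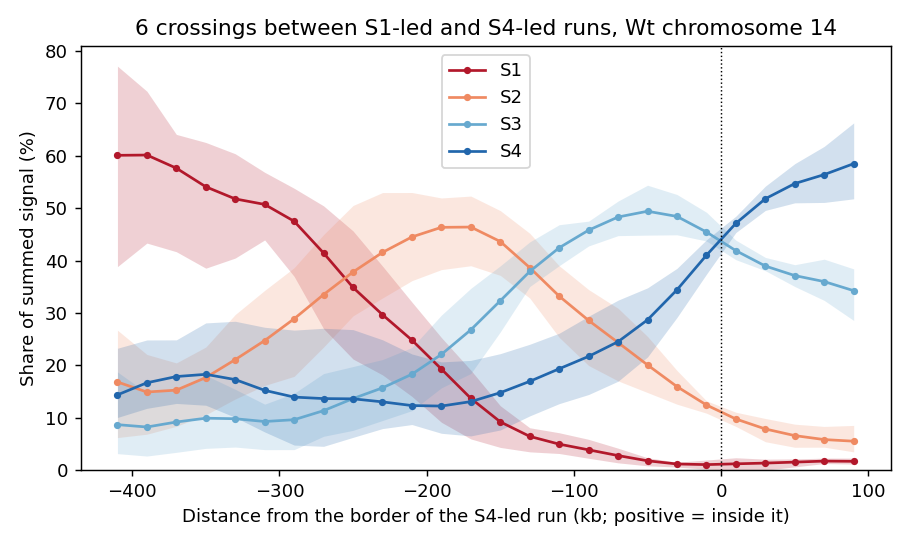
Mean share (%) of S1 to S4 in the summed signal by distance (kb) from the border between an S3-led and an S4-led run, over the 6 crossings of Wt chromosome 14 turned the same way; shaded bands span the lowest and highest crossing. The bands of S2 and S3 peak 1 after the other on the early side, and S1 is near 0 at the border.

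The longest S2-led and the longest S3-led run adjoined each other. S2 led longest at 13420001 to 14060000 (640 kb), with a mean index of 2.90 and a mean S2 score of 1.00 SD units, followed by 2320001 to 2840000 (520 kb, 2.58 and 1.28). The run at 7760001 to 8240000 (480 kb) had 2.73 and 1.49. The next 3, at 220001 to 380000, 11880001 to 12040000 and 14720001 to 14880000, were each 160 kb long. S3 led longest at 14060001 to 14720000 (660 kb), right after the longest S2-led run, with a mean index of 2.12 and mean scores of 1.90 in S3, 0.736 in S2 and 0.282 in S4. It was followed by 5440001 to 5860000 (420 kb, mean S3 score 1.45). Next came 3640001 to 3860000 (220 kb, 1.81), 380001 to 580000 (200 kb, 0.972) and 1340001 to 1500000 (160 kb, 2.03). In the longest S3-led run S4 held 21.1% of the signal and never led, so a block of mid to late replication of this length lay away from any S4-led run.

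By 1 Mb of chromosome, the earliest and the latest part were neighbours. From 12000001 to 13000000 the mean index was 3.42, the highest of the 15 full or nearly full Mb, and S1 led 48 of 50 windows. From 11000001 to 12000000 it was 1.56, the lowest, and S4 led 38 of 50 windows. Next in earliness were 6000001 to 7000000 (3.34, S1 leading 49 of 50 windows) and 4000001 to 5000000 (3.26, S1 leading 50 of 50). Next in lateness were 10000001 to 11000000 (1.91) and 1000001 to 2000000 (2.10, S4 leading 19 windows). The other 9 Mb had means between 2.39 and 3.17. From 2000001 to 3000000 S2 led 38 windows, and from 14000001 to 15000000 S3 led 33. The 3 Mb with most S4-led windows held 86 of the 95 (90.5%), and 4 Mb held any at all.

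The running mean of the index over 5 windows had 16 local maxima and 17 local minima with a prominence of at least 0.25. Of the maxima, 15 were led by S1 and 1 by S2. Of the minima, 7 were led by S1, 2 by S2, 5 by S3 and 3 by S4. Early peaks were thus alike in their leader, and the valleys between them reached very different depths, from an index of 1.17 to one of 3.32. Neighbouring maxima were a median of 800 kb apart (160 to 2120 kb). The number of extremes depended on the rule, with 9 maxima and 9 minima at a prominence of 0.5 and 26 and 27 at 0.1.

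The most prominent maximum lay at 6740001 to 6760000, with a smoothed index of 3.63 and a prominence of 2.18, and S1 held 83.8% there. It was followed by 13160001 to 13180000 (3.75, prominence 1.81) and 10080001 to 10100000 (3.28, 1.75), the S1-led stretch between the 2 late runs. Then came 4900001 to 4920000 (3.49, 1.56) and 3360001 to 3380000 (3.31, 1.33). The deepest minimum lay at 10860001 to 10880000 in the longest S4-led run, with a smoothed index of 1.17 and a prominence of 2.45. The next 2 were the other S4-led runs, at 9560001 to 9580000 (1.54, 1.75) and 1700001 to 1720000 (1.44, 1.73). Those that followed, at 5580001 to 5600000 (1.94, 1.56) and 3740001 to 3760000 (1.98, 1.33), were led by S3.

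Between neighbouring extremes the index changed by a median of 0.238 per 100 kb over 32 transitions (0.0668 to 0.513). The largest change ran from the deepest minimum to the maximum at 12200001 to 12220000, 2.45 index units over 1340 kb, of which S4 led 900 kb. The next was the approach to the same minimum from the other side, 2.11 units over 780 kb. The transitions into and out of the S4-led run at 9500001 were the steepest of the 5 largest, at 0.372 and 0.336 per 100 kb over 500 and 520 kb. The remaining one, from 920001 to 1720000, changed by 1.73 units over 780 kb. The steepest step within each of these 5 lay between 0.598 and 0.702 per 100 kb.

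Signals of fractions next to each other late in S phase went together along the chromosome, and S1 stood apart. Over the 750 windows, which share libraries and neighbours and are not replicates, Pearson's r was 0.523 between S3 and S4 and 0.494 between S2 and S3 (Spearman's rho 0.749 and 0.592). S1 had r of -0.231 with S2, -0.72 with S3 and -0.689 with S4 (rho -0.131, -0.714 and -0.72). For S2 and S4 the 2 measures differed in sign, with r of -0.14 and rho of 0.155. In the 5 Mb stretches of the profile taken singly, r of S1 and S2 was -0.386, -0.458 and 0.133, so that the sign of this correlation was not the same along the chromosome. For S3 and S4, r was 0.744, 0.753 and 0.298 in these stretches. On chromosome 14 the S4 profile changed over the longest distance and the S2 profile over the shortest. Here r between positions fell below 0.5 at 134 kb in S2, 171 kb in S3, 184 kb in S1 and 265 kb in S4. The order differed on chromosome 1, with 176 kb in S3, 190 kb in S2, 207 kb in S4 and 222 kb in S1.

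On chromosome 14 the summed signal was lowest where replication was early. It had a median of 2.62 in S1-led windows, 4.83 in S2-led, 6.06 in S3-led and 5.26 in S4-led windows, in units of the mean of 1 fraction, and r with the index was -0.67 (rho -0.745). Single windows ranged from 1.18, at 4180001 to 4200000, to 9.77, at 14080001 to 14100000. Each fraction had been brought to the same mean, so these sums do not measure the amount of DNA. They depend on how many windows share the signal of a fraction as well as on the overlap of fractions. Windows holding 50% of the signal numbered 207 for S1 and 110 for S4. S4-led windows summed to more than S2-led windows although their leading fraction held more of the signal, a median of 78.4% against 44.1%. In S1-led windows the median score was 0.787 SD units for S1 and below 0 for each other fraction. Chromosome 1, scaled alone in the same way, went the other way, with r of 0.404 between index and summed signal (rho 0.443). Its median summed signal was 4.43 in S1-led and 2.52 in S4-led windows. On each chromosome the sum was lowest in windows of the fraction that led most of them, S1 with 48.8% here and S4 with 42.1% on chromosome 1. The sums rest on the same scaling as these percentages, so the opposite signs are no separate contrast between the chromosomes.

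Where S1 led, S2 was not always second. S2 was second in 184 of the 366 S1-led windows (50.3%), S4 in 161 (44.0%) and S3 in 21 (5.74%). Windows with S4 second had a median S4 share of 18.2%, but a median S4 score of -0.517 SD units, below the S4 mean of the chromosome. Their median summed signal was 2.30, against 2.93 where S2 was second. The S4 share there is thus a share of a small sum, and how often S4 was second varied with the processing. It was second in 39.8% of S1-led windows with the zero at the 5th percentile, in 56.9% with z-scores and in 10.3% with the end of the chromosome kept before rescaling. In this last setting the zero lay far below all kept scores, which left the fractions with nearly equal shares. In none of the S4-led windows was S1 or S2 second: S3 was second in all 95.

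**Figure D5:**
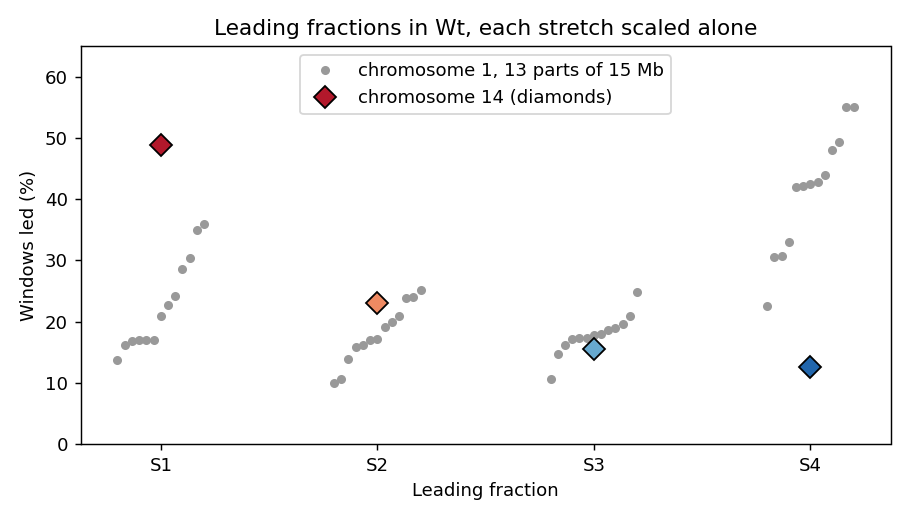
Percentage of 20 kb windows led by each fraction in Wt, on chromosome 14 (diamonds) and in 13 consecutive parts of chromosome 1 of the same length (grey points), each scaled alone. Chromosome 14 lies above all 13 parts for S1, below all 13 for S4, and among them for S2 and S3.

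Beside chromosome 1 of the same libraries, chromosome 14 had more S1-led and fewer S4-led windows, as values with no test. Each chromosome was scaled alone, so these percentages order windows within a chromosome and set no level between the chromosomes. On chromosome 1, S1 led 22.3% and S4 42.1% of 9750 windows. When 13 consecutive parts of chromosome 1, each 15 Mb long, were scaled alone like chromosome 14, S1 led between 13.7% and 35.9% of their windows and S4 between 22.5% and 55.1%. The 48.8% and 12.7% of chromosome 14 lay outside both ranges. Its 23.1% for S2 and 15.5% for S3 lay inside theirs, 10% to 25.2% and 10.7% to 24.8%. The median index of the parts ran from 2.02 to 2.71, against 2.89.

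The runs rest on the same leads and so on the same scaling of each chromosome alone. Chromosome 14 had 2.87 runs per Mb and chromosome 1 had 3.97, and the parts of 15 Mb held between 46 and 122 runs, against 43. S1-led runs had a median of 520 kb on chromosome 14 and 180 kb on chromosome 1, and S4-led runs 380 and 320 kb. On chromosome 1, 120 of 770 joins (15.6%) skipped a fraction, 110 of them between S1 and S4, against 0 of 42. Where S2 and S3 both led between an S1-led and an S4-led run, the median distance was close, 240 kb over 106 crossings on chromosome 1 against 250 kb. The crossings on chromosome 1 had quartiles of 200 and 280 kb and ranged from 80 to 760 kb. The 110 direct joins of S1 and S4 there were not counted as crossings, so this likeness leaves them out. Maxima of the index were 1.07 per Mb on chromosome 14 and 1.18 on chromosome 1. S1 and S2 had r of 0.422 on chromosome 1 and between 0.0145 and 0.662 in its parts, against -0.231. Over positions, skewness in the parts ran from 0.669 to 3.97 for S1 and from 0.208 to 1.41 for S4, against 0.0408 and 1.82. The highest run count, r of S1 and S2, and skewness of both fractions all came from 1 part, 150025001 to 165024001. The next highest values were 71 runs and an S1 skewness of 2.09. None of these differences was tested, since there was 1 library a fraction and 1 chromosome on one side.

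The profiles carried marks of their processing that touch these windows. They were continuous within stretches of 5000 positions, and most fractions stepped where stretches met. Between positions 10024001 and 10025001 the S1 score rose by 0.389 SD units, against a median step of 0.00641, and the S4 score fell by 0.121. At the join after 5024001 the S4 score changed by -0.0706, against a median step of 0.00342. S1 did not step there (0.00324), nor did S3 at the join after 10024001 (-0.0023, median step 0.00364). Both joins lay inside S1-led runs, and without the windows within 50 kb of a join S1 led 48.1% and S4 12.8% of windows. By stretch, S1 led between 33.3% and 64.0% of windows and S4 between 3.60% and 26.9%.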

How the data were processed

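The values used were the scores that the authors deposited for the 4 Wt fractions, 1 value per kb, which are normalized per the file headers and have mean 0 and SD 1 over each chromosome. The submitters' processing notes name Bowtie2 and the galGal5 build. How reads were filtered, smoothed and normalized is not given in the sources used here. Scores were taken as they stand. The chromosome length came from the deposited list of sizes. The last 546 positions of chromosome 14 (3.51%) and, for the comparison, the last 1153 of chromosome 1, which form a short last stretch, were left out before rescaling. Fractions were then rescaled and averaged in windows of 20 kb as described in the report, with Python 3.11.15, numpy 2.4.6, pandas 2.3.3 and scipy 1.17.1. Of the chromosome 1 windows, 21 had no scaled signal and no leader. The steps were tested on simulated profiles. Local extremes came from the running mean of the index over 5 windows. The regions named are the 5 longest runs of each fraction, the 5 most prominent maxima and minima, the 5 largest transitions, and all Mb of the chromosome, beside extreme single windows. The members, the rules and the comparisons were chosen with earlier results of these data known. Alternatives covered window size, zero point, scale, the left-out end, the fractions in the index and the rule for extremes. The parts of chromosome 1, the alternative without windows near joins and the alternative that kept the last stretch of chromosome 1 were added after seeing the data. Depth is unknown, and 1 library a fraction allows no interval for replicate error. Whole-genome amplification preceded library construction, per the labels' protocols, and its part in the signal was not tested.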

Additional observations from a re-analysis of the deposited data

Results flagged for a closer look

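The end of chromosome 14 beyond position 15024001 was used only in the alternative that kept it before rescaling. It held scores on another scale than the rest. There S1 reached 51.1 and ranged down to -7.34, whereas the kept positions lay between -0.0198 and 0.0334. The 546 positions of this end made up 99.98% of the S1 variance, and between 15077001 and 15468001, 372 of them had the same S1 score of -1.72 to 4 decimals.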

How the results depend on the processing

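Of 151 alternative values for 26 results, 131 stayed within the limits set, 20 moved and 0 reversed. After seeing the data, 18 of the 151 were added. They came from leaving out windows near joins and from keeping the last stretch of chromosome 1. The limits were the exact (Clopper-Pearson) 95% interval for percentages of windows, 1.5-fold for counts and lengths, and 0.1 for correlations and the median index. That interval treats windows as independent, which neighbouring windows of these smooth profiles are not. It served as a limit only and does not measure error. Some of the alternatives could hardly move. Shifting and scaling a fraction leave r unchanged, so correlations from deposited scores or with the end kept stayed near their main values by construction. The percentages of windows led by each fraction, the number of runs, the longest S1-led and S4-led runs, and the number and median distance of the crossings stayed within them under every alternative run. With the end of the chromosome kept before rescaling, there were 5 S4-led runs in place of 3 and 3 joins that skipped a fraction, the median index was 2.50, and S4 was second in 10.3% of S1-led windows. In that setting the zero lay at or below the flat scores of the end, -1.72 in S1, far below all kept scores. The fractions then had nearly equal shares in the kept windows, which by construction brings the index close to 2.50. S4-led runs numbered 4 with windows of 10 kb and 4 with z-scores, within the limit. Joins that skipped a fraction numbered 2 with windows of 10 kb and 2 with z-scores, with which S4 was second in 56.9% of S1-led windows. The median index was 2.08 without S1, 3.05 without S3 and 3.23 without S4, as fewer weights enter it. The 16 maxima and 17 minima became 26 and 27 without a running mean, 26 and 27 at a prominence of 0.1, and 9 and 9 at 0.5. With shares in place of scaled signal, which sum to 100% by construction, r was -0.53 for S1 and S4, 0.23 for S2 and S3, -0.535 for S2 and S4, and 0.182 for S3 and S4. For the other changes, the cause was not tested. No paired analysis was possible because each fraction held 1 library. What depth limits could not be assessed without counts.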

Other observations

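Local minima of the index also occurred inside S1-led runs. Of the 17 minima, 7 lay in windows led by S1, with a smoothed index between 2.68 and 3.32. Their summed signal ran from 1.30 to 3.20, below the median of the chromosome, 3.64, in all 7. The S4 share in them was between 8.72% and 40.8%, while the S4 score was above 0 in none of the 7. The lowest of them lay at 3200001 to 3220000, where S1 held 44.7% and S4 40.8% of the signal, with an S1 score of -0.622 SD units and an S4 score of -0.422.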
